A study of Mus musculus with 10 samples.

Results

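Genes that build the mitotic spindle, condense and separate chromosomes and complete cell division were read in mature B cells sorted from mouse bone marrow. The 52 genes were taken from a fixed list of mitosis, spindle and centromere genes, matched by symbol in a table of 14450 genes, and all 52 were held by it. RNA was sequenced from 5 libraries of Chat+ mature B cells and 5 libraries of Chat- mature B cells of Chat-GFP mice at steady state, a reporter strain in which green fluorescent protein marks expression of Chat, the gene of choline acetyltransferase. Both groups thus carried the reporter and neither was treated, and the question is how B cells that express Chat differ from those that do not. Separate animals are not named in the labels, and p-values here therefore describe the spread among 5 libraries a group, which may be technical. The sources used here do not give the gates of the sort or the age and sex of the mice.

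Mitosis genes are transcribed mainly late in the cell cycle. The kinase CDK1 with its cyclins starts mitosis, condensins compact the chromosomes, kinetochores built on centromeres attach them to spindle microtubules, and a checkpoint holds the cell until all are attached. The anaphase-promoting complex then releases the sister chromatids and the cell divides. Mature B cells in the marrow are mostly resting, and most of these genes are kept low outside of division by the DREAM complex, which contacts promoters through a short element called the cell cycle genes homology region (CHR). Levels are given as CPM (counts per 1000000 counts of a library), which are not scaled to transcript length, so a level is compared between libraries and not between genes.

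All 52 genes had a higher fitted mean in Chat+ cells, against 57.0% of all 14450 genes. Their median log2 fold change, Chat+ over Chat-, was 0.91 (1.88-fold), against 0.04 over all genes, and the 90th percentile of all genes was 0.61. None of the 52 passed the threshold, an adjusted p under 0.05 by limma with Benjamini-Hochberg adjustment over all genes, where 0.00692% of all genes (1 gene) were called in either direction and 0.0% as higher in Chat+. The smallest adjusted p of the 52 was 0.087. At an unadjusted p under 0.05, 39 of the 52 were higher and 13 missed it, against 3.49% of all genes called as higher at that level. Every Chat+ library stood above every Chat- library in 15 of the 52, against 1.12% of all genes. A fitted fold of at least 2 was reached by 23 of the 52, against 4.82% of all genes. The genes lie on 17 chromosomes. In bulk RNA, more dividing cells and more of these transcripts per cell cannot be told apart.

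**Figure D1:**
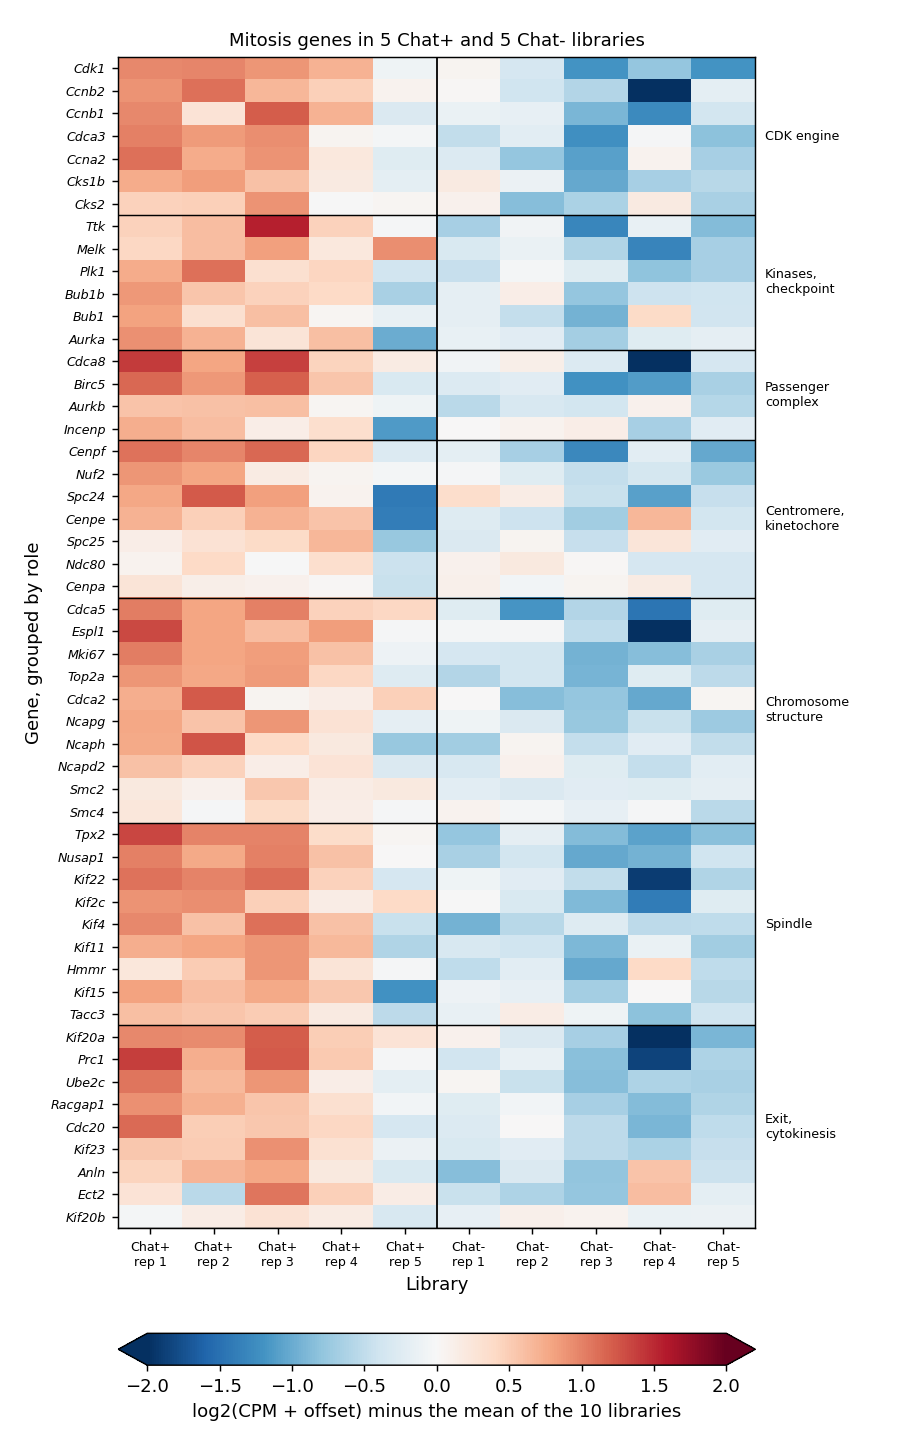
Log2(CPM + offset) of the 52 mitosis genes (rows, grouped by role) in each library (columns, Chat+ at left), as the difference from the gene's mean over the 10 libraries; red is above and blue below that mean. Chat+ replicates 1 to 4 are red in most rows, Chat+ replicate 5 is pale or blue in most, and Chat- replicate 4 holds both the darkest blue cells and some red ones.

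The libraries had an estimated 21530000 to 30060000 reads each. The sort matched its label at Chat, which had 79.6, 71.9, 111, 59.9 and 31.1 CPM in Chat+ replicates 1 to 5, against 7.93, 5.15, 19.7, 3.54 and 1.17 CPM in Chat- replicates 1 to 5, with no overlap between the groups. Genes that define mature B cells summed to 18370 to 21110 CPM in Chat+ and 19370 to 19500 CPM in Chat- cells, with Ighm, the IgM heavy chain gene, averaging 6801 CPM in Chat+ and 5647 CPM in Chat- cells. Of these 10 genes 6 had a lower fitted mean in Chat+ cells, 2 of them at an unadjusted p under 0.05, against 1.01% of all genes called as lower at that level. They were Fcer2a, the CD23 gene (log2 fold change -0.35 ± 0.11 (SE)), and Ighd, the IgD heavy chain gene (-0.30 ± 0.14 (SE)). Chat- replicate 4 stood apart from the rest: 1213 of its genes were at the lowest value of the table, and mitochondrial genes took 11.87% of its CPM, against 2.27% to 3.85% in each of the other 9 libraries. No mitosis gene was at 0 in any library, and the lowest value was 0.557 CPM, for Cdca8 in Chat- replicate 4.

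The summed level of the 52 genes was 1339 ± 297.2 CPM in Chat+ (SD, n = 5) and 806.0 ± 81.5 CPM in Chat- (SD, n = 5). By library, the mean log2 level of the 52 was 4.39, 4.27, 4.34, 3.97 and 3.38 in Chat+ replicates 1 to 5, against 3.39, 3.38, 2.97, 2.98 and 3.12 in Chat- replicates 1 to 5. Chat+ replicates 1 to 4 stood above every Chat- library, and Chat+ replicate 5 lay inside the Chat- range. That library was the lowest of the Chat+ libraries for 45 of the 52 genes, and among the 37 genes whose groups overlapped it was the lowest for 34. It also had the lowest Chat level of the Chat+ libraries. In 22 of the 37 overlapping genes exactly 4 Chat+ libraries stood above all of Chat-. Without Chat+ replicate 5, the median log2 fold change of the 52 was 1.09 and 5 of them passed the threshold. These were Mki67 (adjusted p = 0.0075), Top2a (0.019), Kif11 (0.031), Nusap1 (0.031) and Tpx2 (0.047), and 0.0346% of all genes were then called as higher. Over all alternatives tried, the adjusted p of these 5 genes ran to 0.3, 0.59, 1.0, 0.39 and 0.41. With the libraries weighted by limma's estimate of their quality, which gave Chat+ replicate 5 a weight of 0.370 and Chat- replicate 4 the lowest, 0.132, 19 of the 52 passed, against 0.644% of all genes called as higher.

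Within the groups the genes varied together to different degrees. The correlation of a gene's deviations from its group means with the mean deviation of the other 51 genes, given as a description over 10 libraries that the genes share, had a median of 0.71 and ran from -0.08 for Ect2 to 0.98 for Mki67. The median was 0.90 within the 5 Chat+ libraries and 0.53 within the 5 Chat- libraries. The spread of the genes' deviations within 1 library was widest in Chat- replicate 4, with an SD of 0.73 on the log2 scale, against 0.22 to 0.39 in each of the other 9 libraries. Chat- replicate 4 was the lowest Chat- library for 20 genes and the highest for 14.

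The 7 genes of the cyclin-dependent kinase engine, which starts mitosis, were all higher in Chat+ at an unadjusted p under 0.05, with a median log2 fold change of 1.12. Cdk1, the kinase itself, had 14.1, 14.4, 13.4, 11.8 and 6.82 CPM in Chat+ replicates 1 to 5, against 7.49, 5.72, 3.1, 4.18 and 3.09 CPM in Chat- replicates 1 to 5. Chat+ replicate 5 lay below Chat- replicate 1 and the other 4 Chat+ libraries stood above all of Chat- (log2 fold change 1.37 ± 0.31 (SE), adjusted p = 0.28). Ccna2, the cyclin A2 gene, had 45.04, 35.1, 39.2, 24.2 and 17.7 CPM in Chat+, against 17.2, 12.2, 9.76, 22 and 13.1 CPM in Chat- cells, and here Chat+ replicate 5 lay below Chat- replicate 4 (log2 fold change 1.09 ± 0.28 (SE), adjusted p = 0.41). Cdca3, which promotes mitotic entry, had 21.5, 19.3, 20.3, 11.1 and 10.3 CPM in Chat+, against 7.53, 9.12, 4.47, 10.4 and 5.96 CPM in Chat- cells. Again 4 of the 5 Chat+ libraries were above every Chat- library (log2 fold change 1.12 ± 0.29 (SE), adjusted p = 0.42). The largest p of these genes was that of Cks2, a small CDK-binding subunit, with 9.43, 9.58, 12.8, 6.77 and 7.04 CPM in Chat+, against 7.29, 3.72, 4.34, 7.73 and 4.32 CPM in Chat- (log2 fold change 0.75 ± 0.29 (SE), adjusted p = 1.0). Its groups overlapped at 2 Chat+ libraries. The B cyclins, partners of CDK1, averaged 12.5 ± 4.69 CPM in Chat+, against 5.5 ± 1.79 CPM in Chat- for Ccnb1 (SD, n = 5 each). Ccnb2 averaged 14.7 ± 3.92 CPM in Chat+, against 6.42 ± 2.71 CPM in Chat- cells, and it was the one gene of this group with no overlap. Cks1b, the other CDK-binding subunit, averaged 11.5 ± 3.21 CPM in Chat+, against 6.32 ± 2.12 CPM in Chat- cells. Values of Cks2, Ccnb1 and Cks1b are uncertain, because 31.7%, 27.7% and 17.3% of their 31-base words are shared with other transcripts, mainly Gm15452, Ccnb1-ps and Cks1brt.

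Of the 6 mitotic kinases and spindle checkpoint genes, 4 were higher at an unadjusted p under 0.05 and the median log2 fold change was 0.77. Melk, a kinase found in dividing cells, had 3.67, 4.24, 4.91, 3.18 and 5.31 CPM in Chat+ replicates 1 to 5, against 2.17, 2.47, 1.76, 1.02 and 1.66 CPM in Chat- replicates 1 to 5. Its groups did not overlap, and Chat+ replicate 5, low for most mitosis genes, had the highest value (log2 fold change 1.21 ± 0.33 (SE), adjusted p = 0.49). Ttk, the kinase that recruits the spindle checkpoint to kinetochores, had 4.12, 4.58, 8.88, 4.12 and 2.91 CPM in Chat+, against 1.83, 2.8, 1.13, 2.65 and 1.56 CPM in Chat-, also with no overlap (log2 fold change 1.23 ± 0.38 (SE), adjusted p = 0.7). Plk1, the polo-like kinase of spindle assembly and mitotic exit, had 13.2, 17.1, 9.85, 10.7 and 6.04 CPM in Chat+, against 5.72, 7.7, 6.69, 4.46 and 4.96 CPM in Chat- (log2 fold change 0.88 ± 0.29 (SE), adjusted p = 0.8). For Plk1 only Chat+ replicate 5 reached into the Chat- range, and 14.8% of its 31-base words are shared, mainly with the pseudogene Plk-ps1. Aurka, the aurora kinase of centrosomes and spindle poles, had the largest p, with 12.1, 10.3, 7.6, 9.67 and 3.14 CPM in Chat+, against 5.72, 5.43, 3.95, 5.36 and 5.62 CPM in Chat- (log2 fold change 0.59 ± 0.34 (SE), adjusted p = 1.0). Its 4 higher Chat+ libraries stood above all of Chat- and replicate 5 below all of it. The checkpoint genes Bub1 and Bub1b both overlapped. Bub1 averaged 7.03 ± 1.93 CPM in Chat+, against 4.52 ± 1.62 CPM in Chat- cells. Bub1b, which encodes an inhibitor of the anaphase-promoting complex, averaged 18.3 ± 5.97 CPM in Chat+, against 11.2 ± 2.62 CPM in Chat-.

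The chromosomal passenger complex corrects faulty attachments of chromosomes to the spindle and later guides cytokinesis, and it has 4 subunits. All 4 subunit genes were higher in Chat+, 3 of them at an unadjusted p under 0.05, with a median log2 fold change of 1.03. Birc5, the gene of survivin, had 23.6, 19.3, 24.3, 15.5 and 8.55 CPM in Chat+ replicates 1 to 5, against 8.73, 9.03, 4.51, 4.78 and 6.73 CPM in Chat- replicates 1 to 5. Chat+ replicate 5 lay just below 2 Chat- libraries (log2 fold change 1.39 ± 0.32 (SE), adjusted p = 0.28). Aurkb, the kinase of the complex, had 20.4, 20.6, 20.9, 14.03 and 12.8 CPM in Chat+, against 9.43, 10.99, 10.6, 14.6 and 9.15 CPM in Chat- (log2 fold change 0.68 ± 0.21 (SE), adjusted p = 0.67). In this gene Chat- replicate 4, at the top of its group, lay above 2 Chat+ libraries. Cdca8, the gene of borealin, had 21.3, 13.9, 20.9, 10.97 and 8.99 CPM in Chat+, against 7.69, 8.76, 6.66, 0.557 and 6.32 CPM in Chat- cells. The groups did not overlap, and its fold change, the largest of the 52, rests partly on Chat- replicate 4 (log2 fold change 1.66 ± 0.62 (SE), adjusted p = 0.98); without that library it was 0.97. Incenp, the scaffold, had 48.1, 44.8, 31.6, 36.8 and 13.1 CPM in Chat+, against 29.1, 30.4, 31.8, 18.3 and 24.9 CPM in Chat- cells, and Chat+ replicate 5 was the lowest of all 10 libraries (log2 fold change 0.27 ± 0.31 (SE), adjusted p = 1.0).

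Centromere and kinetochore genes had the lowest median fold change of the 7 role groups. Of 7 genes, 2 were higher at an unadjusted p under 0.05, none was free of overlap, and the median log2 fold change was 0.42. Their mean log2 level was 3.04 in Chat+ replicate 5, below all Chat- libraries (3.21 to 3.68). Cenpf, a large kinetochore protein made late in the cycle, had 26.1, 24.4, 27.5, 16.6 and 10.2 CPM in Chat+ replicates 1 to 5, against 10.7, 7.73, 4.97, 10.6 and 6.0 CPM in Chat- replicates 1 to 5. Its 4 higher Chat+ libraries stood above all of Chat- (log2 fold change 1.35 ± 0.31 (SE), adjusted p = 0.29). Nuf2, Spc24, Spc25 and Ndc80 encode the NDC80 complex, which ties kinetochores to microtubules. Nuf2 had 17.2, 16.02, 10.4, 9.67 and 9.05 CPM in Chat+, against 9.07, 7.82, 6.6, 7.23 and 5.48 CPM in Chat-, with Chat+ replicate 5 at the level of Chat- replicate 1 (log2 fold change 0.74 ± 0.24 (SE), adjusted p = 0.8). Spc24 had 11.6, 15.9, 11.99, 7.05 and 2.46 CPM in Chat+, against 8.59, 7.45, 4.9, 3.11 and 4.88 CPM in Chat- cells, and the lowest of its 10 values was Chat+ replicate 5 (log2 fold change 0.60 ± 0.47 (SE), adjusted p = 1.0). Ndc80 averaged 21.4 ± 4.62 CPM in Chat+, against 19.1 ± 3.27 CPM in Chat- cells. Spc25 averaged 7.17 ± 2.3 CPM in Chat+, against 5.69 ± 1.15 CPM in Chat- cells. Cenpe, a kinesin that carries chromosomes to the spindle equator, averaged 13.5 ± 5.43 CPM in Chat+, against 9.45 ± 4.02 CPM in Chat- cells. Cenpa, the histone variant that marks centromeres, had 76.3, 69.2, 68, 65.1 and 46.7 CPM in Chat+, against 68.6, 61.6, 66.3, 71.7 and 50.2 CPM in Chat- cells. Its groups covered nearly the same range (log2 fold change 0.02 ± 0.14 (SE), adjusted p = 1.0; 95% confidence interval -0.29 to 0.34), and its sign changed in several alternatives: the log2 fold change was -0.02 after centring on library medians and as low as -0.06 without Chat- replicate 5.

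Genes of chromosome structure and cohesion included Mki67, which had the smallest p of the 52. Of 10 genes, 9 were higher at an unadjusted p under 0.05, 5 had no overlap, and the median log2 fold change was 0.99. Mki67, which encodes the proliferation antigen Ki-67 that coats mitotic chromosomes, had 142, 120.1, 124, 105 and 65.4 CPM in Chat+ replicates 1 to 5, against 55.5, 54.2, 36.2, 38.6 and 44.6 CPM in Chat- replicates 1 to 5. Every Chat+ library was above every Chat- library (log2 fold change 1.25 ± 0.20 (SE), adjusted p = 0.087). Top2a, the topoisomerase that untangles sister chromatids, had 130.3, 121, 128, 94.3 and 59.3 CPM in Chat+, against 47.3, 54.9, 36.98, 59.8 and 49.3 CPM in Chat- cells, and only Chat+ replicate 5 and Chat- replicate 4 overlapped (log2 fold change 1.06 ± 0.21 (SE), adjusted p = 0.22). Cdca5, the gene of the cohesion protector sororin, had 8.86, 7.51, 8.77, 5.91 and 5.74 CPM in Chat+, against 3.59, 1.82, 2.82, 1.49 and 3.59 CPM in Chat-, with no overlap (log2 fold change 1.48 ± 0.32 (SE), adjusted p = 0.28). Smc4, a condensin core subunit, had the largest p, with 208, 175, 232, 195 and 176 CPM in Chat+, against 188, 173, 159.9, 176 and 123 CPM in Chat- (log2 fold change 0.27 ± 0.13 (SE), adjusted p = 1.0). Chat- replicate 1 stood above 2 Chat+ libraries in it. The other core subunit gene, Smc2, averaged 49.95 ± 6.47 CPM in Chat+, against 35.98 ± 1.09 CPM in Chat-, without overlap. Of the condensin I subunits, Ncapd2 averaged 82.9 ± 18.1 CPM in Chat+, against 59.2 ± 8.7 CPM in Chat- cells. Ncapg averaged 11.5 ± 3.15 CPM in Chat+, against 5.88 ± 1.21 CPM in Chat- cells. Ncaph averaged 14.7 ± 6.91 CPM in Chat+, against 8.09 ± 1.72 CPM in Chat- cells, and the groups overlapped in all 3. Cdca2, which brings a phosphatase to chromatin at mitotic exit, averaged 8.48 ± 3.02 CPM in Chat+, against 4.06 ± 1.48 CPM in Chat-, with no overlap. Espl1, the gene of separase, the protease that cuts cohesin, averaged 12.6 ± 4.07 CPM in Chat+, against 5.38 ± 2.61 CPM in Chat- cells. It did not overlap either, but its lowest Chat- value, 0.962 CPM, was that of replicate 4, and the next Chat- value was 5.12 CPM.

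Of the 9 spindle genes, 7 were higher at an unadjusted p under 0.05 and 3 had no overlap, with a median log2 fold change of 1.12. Nusap1, which bundles spindle microtubules, had 28.01, 23.6, 28.01, 20.9 and 13.9 CPM in Chat+ replicates 1 to 5, against 8.83, 10.8, 6.73, 7.11 and 10.4 CPM in Chat- replicates 1 to 5. Tpx2, which activates aurora A and nucleates microtubules, had 37.3, 29.5, 29.6, 19.2 and 15.2 CPM in Chat+, against 8.6, 13.1, 8.1, 6.97 and 8.26 CPM in Chat- cells. In both genes every Chat+ library was above every Chat- library (Nusap1: log2 fold change 1.35 ± 0.23 (SE), adjusted p = 0.11; Tpx2: log2 fold change 1.49 ± 0.26 (SE), adjusted p = 0.11). Kif4, a motor on chromosome arms, had 14.2, 10.98, 15.6, 10.9 and 5.31 CPM in Chat+, against 3.71, 4.92, 6.02, 5.0 and 5.06 CPM in Chat- cells. Its overlap came from Chat+ replicate 5 alone, which lay below Chat- replicate 3 (log2 fold change 1.12 ± 0.30 (SE), adjusted p = 0.43). Kif15, a motor that helps keep spindle poles apart, had the largest p, with 19.4, 16.9, 18.8, 16.1 and 4.69 CPM in Chat+, against 10.3, 9.83, 6.89, 11.2 and 7.47 CPM in Chat- cells. Its 4 higher Chat+ libraries stood above all of Chat- and replicate 5 below all of it (log2 fold change 0.60 ± 0.36 (SE), adjusted p = 1.0). Kif11, the motor that pushes spindle poles apart, averaged 36.7 ± 11.7 CPM in Chat+, against 17.8 ± 3.68 CPM in Chat- cells. Kif22, which pushes chromosome arms outward, averaged 17.6 ± 6.2 CPM in Chat+, against 7.11 ± 2.74 CPM in Chat- cells. Kif2c, which shortens microtubules at centromeres, averaged 7.45 ± 1.73 CPM in Chat+, against 3.43 ± 1.23 CPM in Chat-, with no overlap. The microtubule-associated genes Hmmr and Tacc3 overlapped. Hmmr averaged 11.7 ± 2.92 CPM in Chat+, against 7.17 ± 2.75 CPM in Chat- cells. Tacc3 averaged 30.7 ± 8.46 CPM in Chat+, against 21.1 ± 5.06 CPM in Chat-.

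Genes of anaphase, mitotic exit and cytokinesis comprised 9 genes, of which 7 were higher at an unadjusted p under 0.05 and 3 had no overlap, with a median log2 fold change of 0.89. Racgap1 and Kif23 together make centralspindlin, which organises the midzone of the dividing cell. Racgap1 had 34.2, 29.9, 26.8, 22.6 and 17.4 CPM in Chat+ replicates 1 to 5, against 15.3, 17.4, 11.4, 9.86 and 11.9 CPM in Chat- replicates 1 to 5, and touched the Chat- range only at Chat+ replicate 5 (log2 fold change 0.98 ± 0.22 (SE), adjusted p = 0.28). Kif23 had 24.02, 23.5, 31.5, 20.5 and 15.3 CPM in Chat+, against 13.3, 14.2, 11.5, 10.7 and 12.1 CPM in Chat-, with no overlap (log2 fold change 0.85 ± 0.19 (SE), adjusted p = 0.28). Prc1, which crosslinks midzone microtubules, had 28.3, 17.8, 25.2, 15.5 and 10.6 CPM in Chat+, against 8.21, 9.72, 5.99, 2.88 and 7.0 CPM in Chat-, also with no overlap (log2 fold change 1.53 ± 0.35 (SE), adjusted p = 0.28). Kif20b, a motor of late cytokinesis, lay at the other end, with 17.6, 19.97, 22.1, 20.2 and 14.3 CPM in Chat+, against 16.1, 19.2, 18.9, 16.3 and 16.6 CPM in Chat- cells. For Kif20b, 3 Chat+ libraries stood above all of Chat- and Chat+ replicate 5 below all of it (log2 fold change 0.10 ± 0.15 (SE), adjusted p = 1.0; 95% confidence interval -0.24 to 0.44). Kif20a, a midzone motor, averaged 12.99 ± 3.34 CPM in Chat+, against 4.75 ± 2.3 CPM in Chat-, without overlap. The ubiquitin-conjugating enzyme gene Ube2c, which serves the anaphase-promoting complex, averaged 15.7 ± 5.36 CPM in Chat+, against 7.45 ± 1.91 CPM in Chat- cells. Cdc20, the activator of that complex, averaged 21.4 ± 7.51 CPM in Chat+, against 11.1 ± 2.66 CPM in Chat- cells, and its value is uncertain, since 25.5% of its 31-base words are shared, mainly with Gm7856. Anln, a scaffold of the contractile ring, averaged 9.63 ± 2.65 CPM in Chat+, against 6.04 ± 2.8 CPM in Chat- cells. Ect2, which activates the GTPase that drives the ring, averaged 9.87 ± 3.96 CPM in Chat+, against 6.62 ± 2.93 CPM in Chat- cells, and the groups overlapped in both genes.

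**Figure D2:**
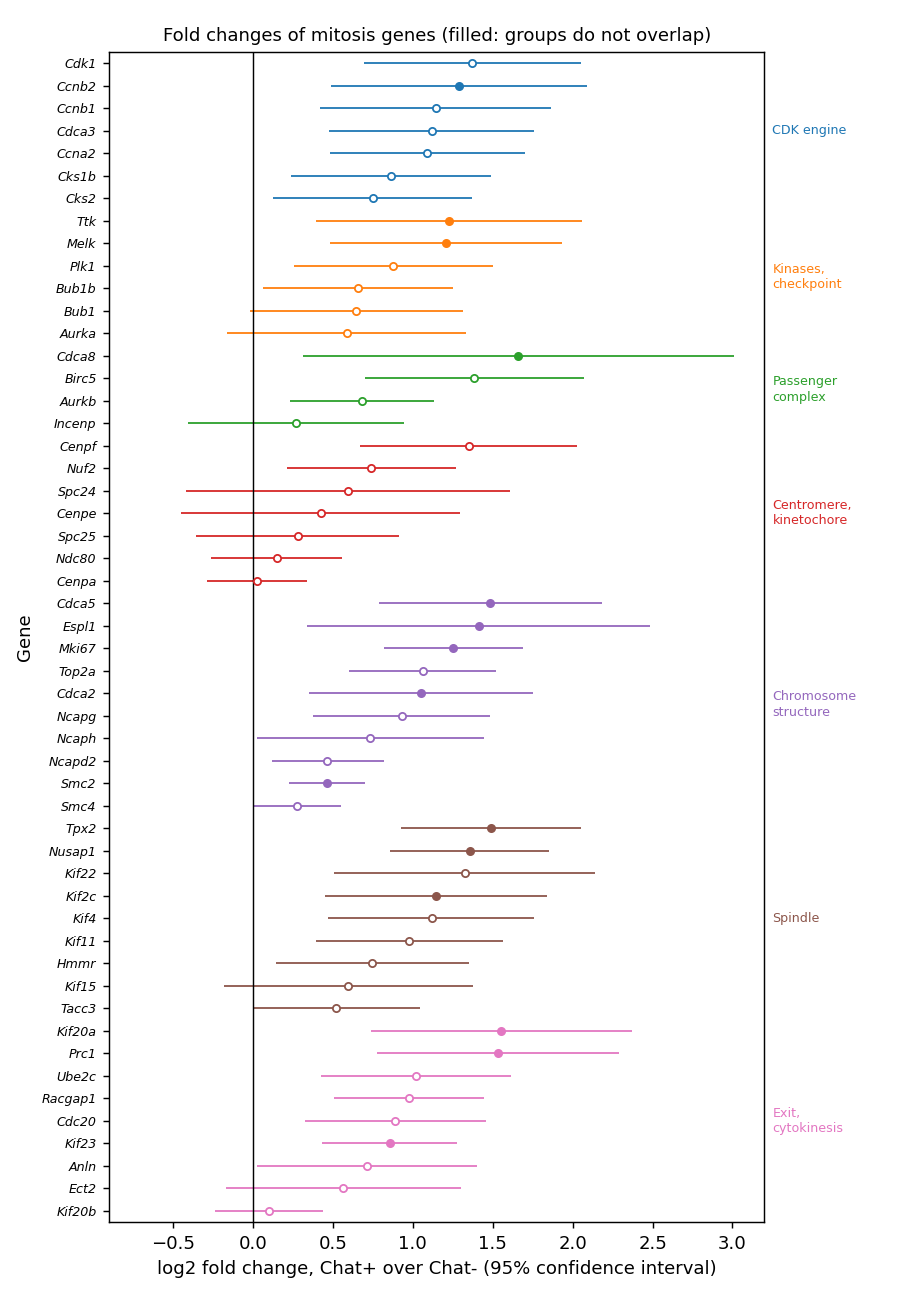
Log2 fold change of each of the 52 genes, Chat+ over Chat-, with its 95% confidence interval from limma, coloured and grouped by role; filled points are the 15 genes whose groups do not overlap. All points lie above 0, from 0.02 for Cenpa to 1.66 for Cdca8, and the intervals of the kinetochore genes other than Cenpf and Nuf2 cross 0.

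**Figure D3:**
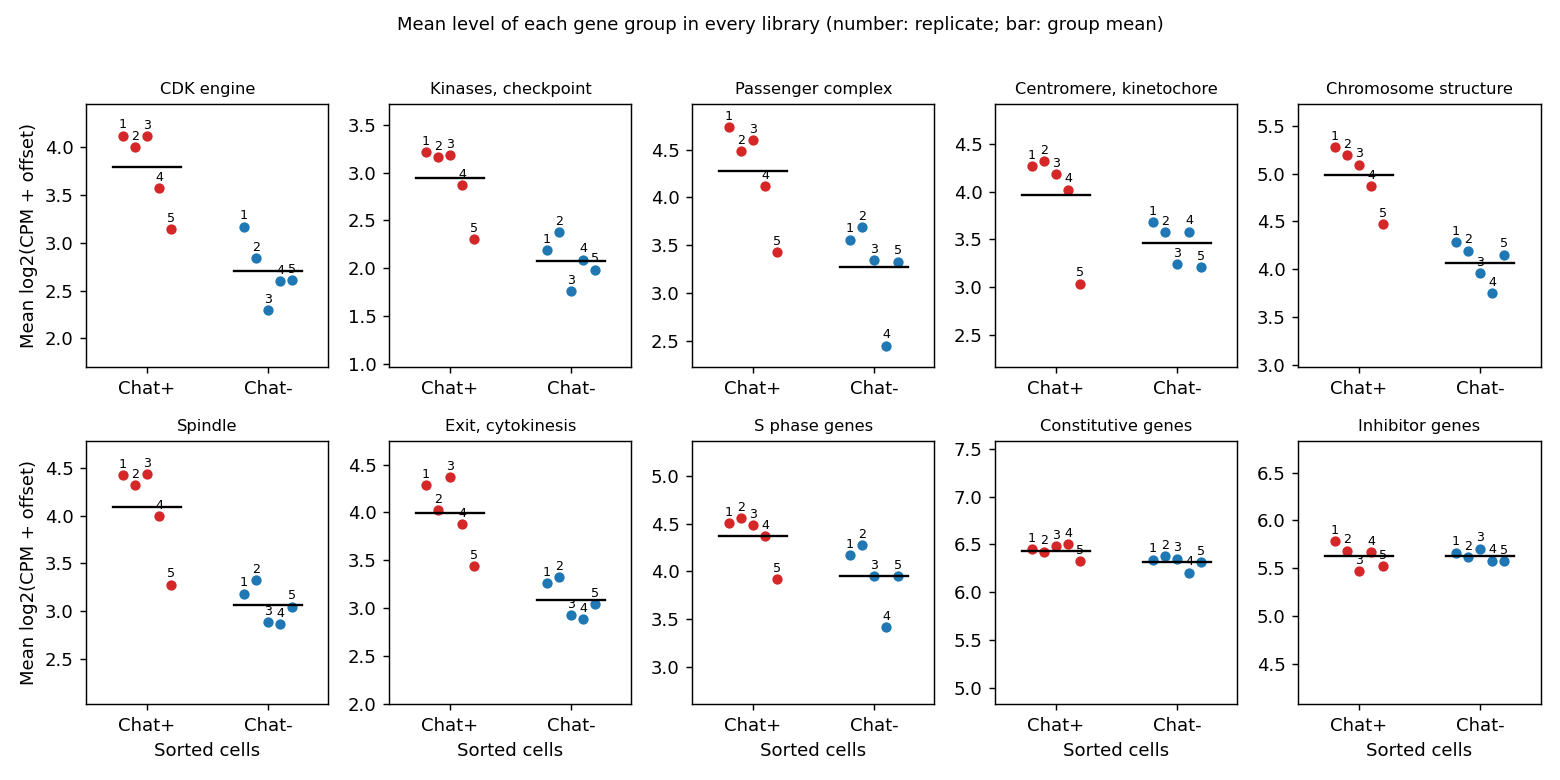
Mean log2(CPM + offset) of each role group, and of 3 comparison lists, in every library (points, numbered by replicate, Chat+ at left; bars are group means). Each panel spans the same height on its own range. Chat+ replicate 5 is the lowest Chat+ library in all 7 role groups, and in the centromere and kinetochore panel it lies below every Chat- library.

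Promoters of the mitosis genes were compared for the short elements through which cell cycle genes are known to be controlled. RefSeq promoter windows (GRCm38.p6, 250 bases before to 50 after the gene start) were matched for 44 of the 52. The windows were searched on both strands for 7 motifs. The CHR-type hexamer TTTGAA (reverse TTCAAA) stood in 34 of the 44 windows (77.3%), against 18.1% of 27025 windows of all genes. Within 50 bases of the start it stood in 70.5%, against 4.9% of all windows. The CCAAT box (reverse ATTGG) stood in 72.7%, against 37.9%, and both motifs in 63.6%, against 7.1%, and they overlapped each other in 1 window. Other letters of the same kind were less frequent: TTCGAA, a CHR variant, stood in 6.8%, against 1.6%, and the hexamer TTTAAA in 20.5%, against 13.2%. Of the E2F-type motifs, TTTCGCG (on either strand) stood in 4.5%, against 0.8%. The next, TTTGGCG, stood in 9.1% on either strand, against 1.6% of all windows. The last, TTTCCCG, also stood in 9.1%, against 3.5% of all windows. A match is a description of letters and not a binding site.

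Fold changes of genes with and without the hexamer overlapped. The 34 genes with it had a median log2 fold change of 0.95, with a range from 0.02 to 1.66, and the 10 without it had a median of 0.74, with a range from 0.42 to 1.39. The stretches below, 120 bases before to 50 after the gene start, are those of the gene with the smallest p and a window in each role group and, after them, of the 3 genes with the largest p. All are written 5′ to 3′ on the gene's strand, with TTTGAA or TTCAAA and CCAAT or ATTGG in capitals.
Mki67 (chr7:135716330-135716499, minus strand): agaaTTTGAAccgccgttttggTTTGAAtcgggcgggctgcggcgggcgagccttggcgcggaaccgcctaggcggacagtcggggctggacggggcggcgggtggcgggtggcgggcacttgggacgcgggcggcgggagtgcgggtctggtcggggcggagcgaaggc
Cdk1 (chr10:69352863-69353032, minus strand): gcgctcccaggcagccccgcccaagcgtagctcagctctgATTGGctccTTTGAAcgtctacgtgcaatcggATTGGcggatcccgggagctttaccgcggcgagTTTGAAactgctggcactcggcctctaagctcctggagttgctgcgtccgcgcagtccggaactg
Birc5 (chr11:117849117-117849286, plus strand): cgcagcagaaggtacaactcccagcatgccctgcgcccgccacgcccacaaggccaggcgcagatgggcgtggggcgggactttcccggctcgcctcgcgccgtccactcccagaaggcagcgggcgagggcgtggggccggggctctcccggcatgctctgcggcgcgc
Melk (chr4:44300797-44300966, plus strand): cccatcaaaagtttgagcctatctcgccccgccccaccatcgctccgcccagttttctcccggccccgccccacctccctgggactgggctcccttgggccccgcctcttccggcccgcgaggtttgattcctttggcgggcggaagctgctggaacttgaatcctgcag
Cenpf (chr1:189688037-189688206, minus strand): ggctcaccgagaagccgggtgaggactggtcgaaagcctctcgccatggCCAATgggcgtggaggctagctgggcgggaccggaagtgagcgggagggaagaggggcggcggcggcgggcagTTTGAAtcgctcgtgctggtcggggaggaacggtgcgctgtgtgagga
Nusap1 (chr2:119618178-119618347, plus strand): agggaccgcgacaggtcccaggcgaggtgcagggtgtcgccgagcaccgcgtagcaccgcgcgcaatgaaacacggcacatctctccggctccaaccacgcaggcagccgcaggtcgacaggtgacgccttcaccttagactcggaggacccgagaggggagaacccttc
Racgap1 (chr15:99651607-99651776, minus strand): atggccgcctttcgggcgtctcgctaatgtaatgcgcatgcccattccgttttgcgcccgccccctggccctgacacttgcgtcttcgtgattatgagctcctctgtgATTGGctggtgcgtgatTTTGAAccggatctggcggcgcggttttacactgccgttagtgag
Cenpa (chr5:30666766-30666935, plus strand): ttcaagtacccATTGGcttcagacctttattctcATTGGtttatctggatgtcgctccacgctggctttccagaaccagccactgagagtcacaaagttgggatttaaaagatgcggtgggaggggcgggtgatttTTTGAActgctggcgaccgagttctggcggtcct
Kif20b (chr19:34922238-34922407, plus strand): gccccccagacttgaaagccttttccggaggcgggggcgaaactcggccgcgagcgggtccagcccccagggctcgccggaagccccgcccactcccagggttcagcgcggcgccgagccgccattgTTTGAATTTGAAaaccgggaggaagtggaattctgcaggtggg
Ndc80 (chr17:71526808-71526977, minus strand): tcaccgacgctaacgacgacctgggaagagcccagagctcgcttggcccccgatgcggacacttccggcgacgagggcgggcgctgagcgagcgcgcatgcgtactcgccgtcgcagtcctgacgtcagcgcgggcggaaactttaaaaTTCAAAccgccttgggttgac
Mki67, Cdk1, Cenpf and Racgap1 show the hexamer, while Birc5, Melk and Nusap1, which also had the smallest p of their role groups, show neither motif. Cenpa, Kif20b and Ndc80 hold the hexamer near the start, and their mean levels were close to equal between the groups.

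**Figure D4:**
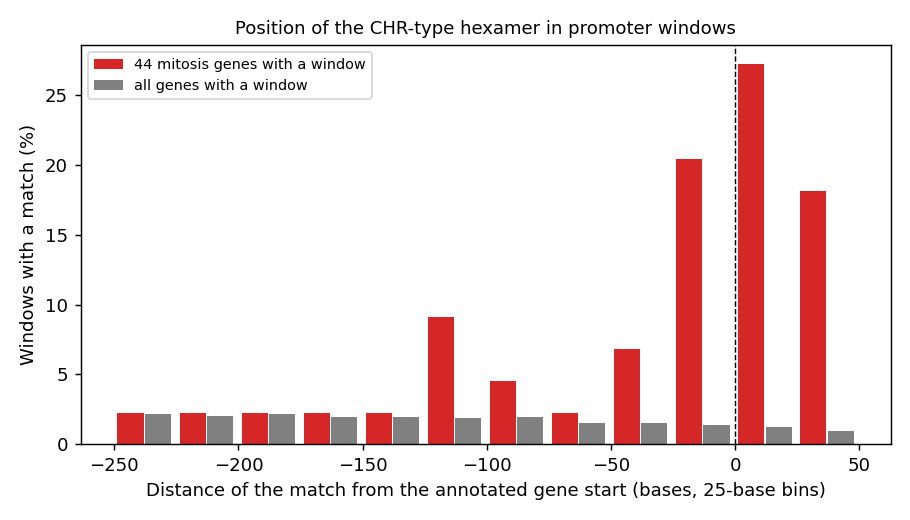
Share of promoter windows with a match to the CHR-type hexamer in each 25-base bin, by distance from the annotated gene start, for the 44 mitosis genes with a window (red) and all 27025 windows (grey). The mitosis genes peak in the bin from 0 to 24 bases, at 27.3%, where all windows are at 1.25%.

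Other genes of the cell cycle were read from lists beside the 52, and none of their members passed the adjusted threshold. Of 40 further mitosis genes, 38 were higher in Chat+ and 21 of them at an unadjusted p under 0.05, 11 had no overlap, and the median log2 fold change was 0.83. Aspm, a spindle pole gene, had 17.8, 13.1, 19.9, 12.2 and 14.7 CPM in Chat+ replicates 1 to 5, against 8.79, 7.5, 6.31, 3.3 and 5.09 CPM in Chat- replicates 1 to 5, with no overlap (log2 fold change 1.36 ± 0.27 (SE), adjusted p = 0.22). Nek2, a centrosome kinase gene, had 32.5, 18.04, 20.4, 12.6 and 31.4 CPM in Chat+, against 8.12, 8.84, 4.26, 5.48 and 11.2 CPM in Chat- cells. The motor gene Kif14 had 8.62, 8.65, 10.4, 5.26 and 5.14 CPM in Chat+, against 3.3, 4.14, 3.42, 2.89 and 2.68 CPM in Chat- cells. Neither overlapped (Nek2: log2 fold change 1.58 ± 0.32 (SE), adjusted p = 0.22; Kif14: log2 fold change 1.14 ± 0.28 (SE), adjusted p = 0.36). The largest p was that of Cenpk, a centromere gene, with 2.9, 2.34, 2.22, 2.69 and 0 CPM in Chat+, against 1.5, 1.14, 1.06, 0.465 and 1.64 CPM in Chat-, where the 0 in Chat+ replicate 5 means that it was listed at the lowest value.

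The S phase list, whose genes copy DNA before mitosis, had a lower median. Of 32 genes, 30 were higher, 9 of them at an unadjusted p under 0.05, 4 had no overlap, and the median log2 fold change was 0.31. The same shares over all genes were 57.0%, 3.49% and 1.12%. Rrm2, the ribonucleotide reductase subunit gene that supplies DNA precursors, had 46.1, 33.8, 56.6, 32.9 and 27.1 CPM in Chat+, against 18.3, 19.2, 14.9, 17.1 and 19.6 CPM in Chat- (log2 fold change 1.09 ± 0.19 (SE), adjusted p = 0.11). Ccne1, the cyclin E1 gene, had 12.8, 12.8, 11.1, 9.71 and 12.1 CPM in Chat+, against 7.97, 6.81, 7.47, 2.69 and 5.69 CPM in Chat- (log2 fold change 1.005 ± 0.29 (SE), adjusted p = 0.55). Neither overlapped. Uhrf1, which maintains DNA methylation at replication, had 48.6, 41.7, 36.8, 41.1 and 26.97 CPM in Chat+, against 27.1, 30.6, 21.4, 16.3 and 26.98 CPM in Chat- (log2 fold change 0.68 ± 0.20 (SE), adjusted p = 0.56).

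Cohesin, condensin II and anaphase-promoting complex genes, which are also used outside of mitosis, and a list of inhibitor and quiescence genes had medians nearer to 0. Of 20 genes of the first kind, 19 were higher, 0 of them at an unadjusted p under 0.05, against 57.0% and 3.49% of all genes. The median log2 fold change was 0.10. Rad21, the cohesin subunit cut by separase, had 192, 199, 210.2, 201 and 206 CPM in Chat+, against 197, 198, 195, 211 and 207 CPM in Chat- cells. The smallest p-values were those of Smc1a, Anapc5 and Ncapg2, with log2 fold changes of 0.26, 0.18 and 0.43. Of 20 inhibitor and quiescence genes, 10 were higher and 10 lower, and the median was 0.00. Lin54, the DREAM subunit that contacts the CHR, was the one of them at an unadjusted p under 0.05, against 1.01% of all genes called as lower. It had 19.8, 16.6, 21.7, 19.7 and 28.4 CPM in Chat+, against 26.8, 26.6, 27.6, 42.5 and 22.4 CPM in Chat- (log2 fold change -0.44 ± 0.19 (SE), adjusted p = 1.0). Foxo1 and Cdkn2c followed, with log2 fold changes of -0.18 and 0.26, and Cdkn1c had the largest p, at 2.25 CPM or less in all 10 libraries. The part of Lin54 in the level of the mitosis genes was not tested.

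**Figure D5:**
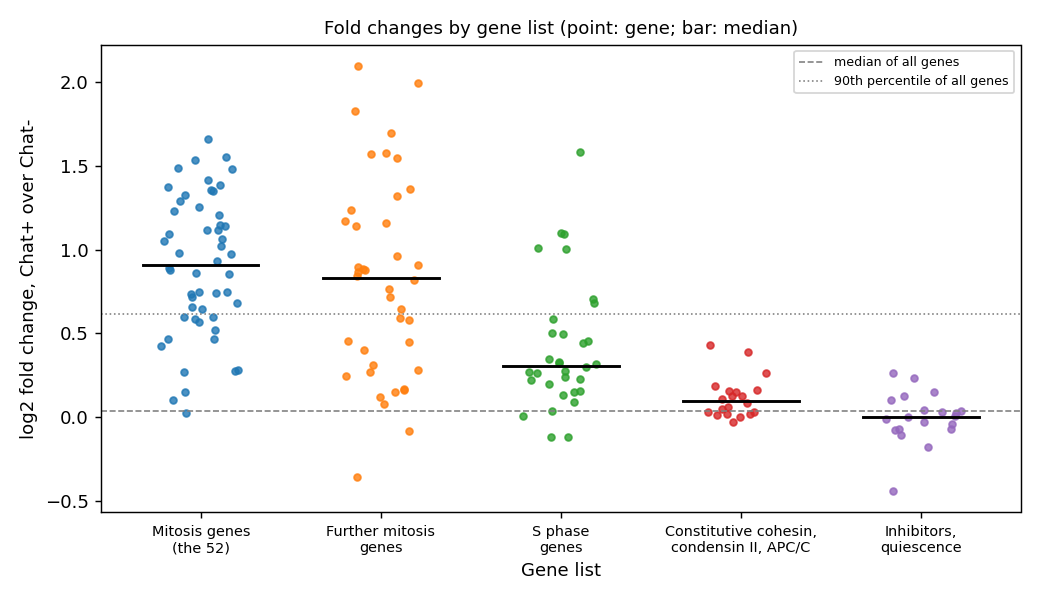
Log2 fold change, Chat+ over Chat-, of each gene in the 52 mitosis genes and 4 comparison lists (points; bars are medians), with the median and 90th percentile of all genes as lines. The medians are 0.91, 0.83, 0.31, 0.10 and 0.00, and most mitosis genes lie above the 90th percentile of 0.61.

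Markers of other cells that the sort could hold were read beside the mitosis genes. Of the 12 pro-B and pre-B markers, 8 were listed and 7 of them had a lower fitted mean in Chat+. At an unadjusted p under 0.05, 2 were lower (Rag1 and Sox4), against 1.01% of all genes called as lower. The 1 with a higher fitted mean, Kit, was also at an unadjusted p under 0.05, against 3.49% of all genes called as higher. Their sum was 61.39 to 98.91 CPM in Chat+ and 82.22 to 144.8 CPM in Chat- cells. Rag1, which is needed for receptor gene rearrangement, had 1.31, 0.585, 1.93, 1.18 and 0.233 CPM in Chat+, against 5.96, 1.99, 4.54, 7.06 and 4.16 CPM in Chat-, so every Chat+ library was below every Chat- library. Vpreb2, Igll1, Rag2 and Erg were not analysed here, and Dntt was at 0 in 2 Chat+ libraries and 1 Chat- library. Germinal centre markers, 7 of 8 listed, summed to 85.23 to 137.3 CPM in Chat+ and 116.7 to 142.2 CPM in Chat- cells, with 4 higher and 3 lower in Chat+. Erythroid markers, 12 of 12 listed, summed to 634.9 to 976.1 CPM in Chat+ and 557.9 to 1194 CPM in Chat- cells, with 6 higher and 6 lower in Chat+. Myeloid markers, 11 of 12 listed, summed to 21.75 to 143.2 CPM in Chat+ and 46.66 to 118.6 CPM in Chat- cells, with 5 higher and 6 lower in Chat+. Plasma cell and plasmablast markers, 9 of 10 listed, summed to 416.7 to 696.5 CPM in Chat+ and 359.9 to 438.0 CPM in Chat- cells. Of these 9, 5 had a higher and 4 a lower fitted mean in Chat+ cells and the median of their log2 fold changes was 0.10. The 3 at an unadjusted p under 0.05 (Jchain, Mzb1 and Derl3) were all higher in Chat+ cells, against 3.49% of all genes called as higher. Xbp1, Irf4 and Prdm1, transcription factor genes of plasma cells, had log2 fold changes of -0.01, -0.02 and 0.10. Fkbp11 had 0.56, Sdc1, the CD138 gene, had -0.05 and Slpi had -0.44. By the mean of CPM, Slpi was higher in Chat+ (1.51 CPM, against 1.18 CPM in Chat-). Jchain, which joins secreted antibody units, had 62.7, 160.4, 15.1, 33.6 and 213 CPM in Chat+, against 22.2, 26.1, 10.1, 19.4 and 35.8 CPM in Chat- cells. Its highest value was in Chat+ replicate 5, the Chat+ library with the lowest mitosis genes.

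By fitted log2 fold change, stromal and endothelial markers lay in the same direction as the mitosis genes. Of the 11 of 12 listed, 10 had a higher fitted mean in Chat+ cells, and the median log2 fold change was 0.69. None of them was at an unadjusted p under 0.05, against 3.49% of all genes called as higher. By the mean of CPM some were not higher, such as Col1a1 (29.29 CPM in Chat+, 30.07 CPM in Chat-). The sum of the 11 was 288.3 to 425.0 CPM in Chat+ and 303.4 to 578.6 CPM in Chat- cells. Except in Chat- replicate 4, most of it came from Pecam1, an adhesion gene. Pecam1 averaged 253.3 CPM in Chat+ and 253.4 CPM in Chat- cells, and its lowest value, 177.4 CPM, was in Chat- replicate 4. Col1a1, a collagen gene of stromal cells, had 16.3, 42.4, 40.8, 8.40 and 38.5 CPM in Chat+, against 12.4, 10.9, 8.67, 110.8 and 7.59 CPM in Chat-. Chat- replicate 4 was the highest of all libraries for Col1a1, and Chat+ replicate 5, with the lowest mitosis genes of its group, was among the 3 highest Chat+ libraries. Without Chat- replicate 4 the median log2 fold change of the stromal and endothelial list was 1.32 and 6 of the 11 were higher at an unadjusted p under 0.05, against 5.36% of all genes called as higher in that fit. The median of the 52 mitosis genes was 0.91 without that library.

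Macrophage markers, 8 of 10 listed, summed to 41.01 to 68.21 CPM in Chat+ and 33.97 to 124.9 CPM in Chat- cells. Of these 8, 6 were higher and 2 lower in Chat+, 1 of the 2 at an unadjusted p under 0.05, against 1.01% of all genes called as lower. The median of their log2 fold changes was 0.32. Without Chat- replicate 4 that median was 0.63, with 7 higher and 1 lower. In that fit 4 of the 8 were higher at an unadjusted p under 0.05, against 5.36% of all genes. Plasmacytoid dendritic cell markers, 8 of 8 listed, had 2 higher and 6 lower fitted means in Chat+ cells, and the median of their log2 fold changes was -0.26. Their sum, 1075 to 1208 CPM in Chat+ and 1007 to 1224 CPM in Chat- cells, came mostly from Ly6d and Tcf4, which B cells also express. The 2 at an unadjusted p under 0.05 were Siglech, a surface receptor gene of these cells, and Cox6a2. Both were lower in Chat+, against 1.01% of all genes called as lower. Siglech had 2.12, 0.551, 0.728, 1.96 and 1.52 CPM in Chat+, against 4.37, 4.76, 4.001, 1.25 and 7.26 CPM in Chat- cells. Cox6a2 was at 0 in 4 Chat+ libraries and at 0.0388 CPM in Chat+ replicate 5, against 0.458 to 1.53 CPM in Chat- cells, without overlap. T and NK cell markers, 2 of 10 listed, summed to 13.49 to 25.07 CPM in Chat+ and 16.54 to 31.08 CPM in Chat- cells, 1 of them higher and 1 lower in Chat+. The library quality weights, with which 19 of the 52 mitosis genes passed, moved some marker lists. Of 12 erythroid markers, 10 were then higher in Chat+ and 2 lower (median 0.26). Of 11 myeloid markers, 9 were higher and 2 lower (median 0.21, against -0.43 unweighted). Of 11 stromal and endothelial markers, 9 were higher and 2 lower (median 0.80, against 0.69 unweighted). Of 8 macrophage markers, 6 were higher and 2 lower (median 0.42, against 0.32 unweighted). Pro-B and pre-B markers stayed mostly lower, 7 of 8. The part of these other cells in the level of the mitosis genes was not tested.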

How the data were processed

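Total RNA of sorted cells was extracted with a column kit and made into strand-specific libraries, per the labels' protocols. The submitters' processing notes name cutadapt 2.6, a trimmer of reads, Salmon 0.14.2, which quantifies transcripts, and the build GRCm38.p6. Which annotation, strand setting and final tool gave the values is not given in the sources used here.

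The deposited values are log2 values: all 10 libraries share the lowest value, -3.1228, and with that offset (0.1148 CPM) removed each sums to 1000000 CPM. The offset was worth about 3.0 reads at the mean depth. Depth was estimated from the steps between low values; only 37.5% to 51.2% of the values under 3 CPM came out as whole reads (within 0.005) in a library, so counts were not recovered and count models were not used. The log2(CPM + offset) scale of the fold changes makes changes of low genes look smaller, and values of a few reads also carry counting error.

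Groups follow the sample titles. limma 3.58.1 in R 4.3.3 (lmFit, then eBayes with a mean-variance trend, group as the only term) was run on all 14450 genes, two-sided, with Benjamini-Hochberg adjustment and a threshold of 0.05. It was tested on simulated data. Unadjusted p-values are used to count genes, not to call them. Means and SDs are of CPM with the offset removed. Genes counted as higher or lower are so by the sign of the fitted log2 fold change. The genes, the lists beside them and the tests were chosen with earlier results of these data known, so no test of a list was made.

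Named with values in every library were Chat and the 3 genes with the smallest p and the 1 with the largest p in each role group. Of each comparison list, up to 3 smallest and 1 largest were named. The marker genes named, such as Rag1, Jchain, Col1a1, Pecam1, Siglech and Cox6a2, fall outside this rule. Rag1 and Jchain were chosen after their values were seen. Other genes of the 52 are given as means. The motifs were also chosen after the windows had been searched. Alternatives were library weights, scaling, the variance model, the pseudocount, filters on low values, the replicate number as a block and leaving out libraries. Symbols were matched for 14374 of 14450 identifiers (GENCODE M21 names), and shared sequence is the percent of 31-base words that a gene has in common with other genes' transcripts. Promoters are from RefSeq. Python 3.11.15, numpy 2.4.6, pandas 2.3.3 and matplotlib 3.10.9 were used.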

Additional observations from a re-analysis of the deposited data

Results flagged for a closer look

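In 9 of 106 groups of 5 libraries (the 52 genes and Chat, in each group), 1 library lay far from the other 4 on the log2 scale, with a gap to its nearest neighbour above 0.71 of the group's range. Chance flags about 1 in 20 groups. Chat+ replicate 5 was the low library in 4 of them: Cdk1 (0.729 of the range), Cenpe (0.896), Kif11 (0.847) and Kif15 (0.870). Chat- replicate 4 was the low library for Kif22 (0.718), Cdca8 (0.876) and Espl1 (0.827). Chat- replicate 3 was low for Aurka (0.825), and Chat+ replicate 3 was high for Smc2 (0.759).

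Cenpe had 3.91 CPM in Chat+ replicate 5, while the other 4 Chat+ libraries had 14.4 to 16.8 CPM, and Kif15 had 4.69 CPM there, while the others had 16.1 to 19.4 CPM. Chat- replicate 4 also had 1213 genes at the lowest value and 11.87% of its CPM in mitochondrial genes. The part of this in its low mitosis genes was not tested.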

How the results depend on the processing

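Under all 19 alternatives 51 of the 52 genes stayed higher in Chat+; Cenpa changed sign, with a log2 fold change of -0.019 after centring on library medians and -0.06 to 0.137 when 1 library was left out (below 0 without Chat+ replicate 1, Chat+ replicate 2 or Chat- replicate 5). The median log2 fold change of the 52 was 0.84 to 1.09 when 1 library was left out, against 0.91 with all. The number of genes called in the whole table was 1 with all libraries, 105 with library quality weights, 3 without the mean-variance trend and 1 to 6 when 1 library was left out. The number of mitosis genes called was 0 with all libraries and 19 with library quality weights. It was 0 to 5 when 1 library was left out, the 5 appearing without Chat+ replicate 5. An alternative chosen after seeing the data left out the 3 libraries with more than 400 genes at the lowest value (Chat- replicate 4 and Chat+ replicates 3 and 5). It called 17 genes, 15 of them higher (0.104% of all), and 5 mitosis genes: Mki67, Top2a, Kif11, Nusap1 and Tpx2. The cause of these differences was not tested. Centring and quantile normalization moved the median log2 fold change of all genes to -0.01, by less than 0.1. In each of them 1 gene was called, the 1 called without them, and 0 of the 52. The labels do not say whether equal replicate numbers mark the same animal. Correlations of same-numbered libraries ran from -0.20 to 0.23, and 3 of 5 Chat+ libraries correlated best with their own number. These values do not settle whether libraries were paired, and the main fit used no pairing. A replicate block gave 6 called genes, 5 of them higher, and 0 of the 52. The log2 fold change of Cdca8 was 1.66 with all libraries and 0.97 without Chat- replicate 4. At a given depth counting error is relatively largest for the genes with the lowest CPM.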
